A study of Mus musculus with 10 samples.

Results

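The Hox genes encode homeodomain transcription factors that lie side by side in 4 clusters, HoxA to HoxD. Members were the RefSeq protein-coding genes (NM_ transcripts) on the mouse build GRCm38 whose symbol is Hoxa, Hoxb, Hoxc or Hoxd followed by a number. The rule gave 39 of 21000 such genes, with 11 in HoxA, 10 in HoxB, 9 in HoxC and 9 in HoxD. As background, Hox proteins give cells their position along the body axis, and the order of the genes on the chromosome follows the order of their domains along that axis. Genes of the same number in different clusters are paralogs, and low numbers are the anterior and high numbers the posterior genes. Hox proteins bind DNA with cofactors of the Pbx, Meis and Pknox families, and Polycomb proteins keep the clusters silent where Trithorax proteins keep them active. In adult skeletal muscle, Hox genes are known mainly for the position they record in muscle fibers and their stem cells.

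The data were chromatin immunoprecipitation sequencing (ChIP-seq) peak lists from skeletal muscle of male C57BL/6J mice, labelled as 10 weeks of age, that were either fed or starved for 24 h. Antibodies were directed against the glucocorticoid receptor (GR), a hormone-activated transcription factor, against lysine-specific demethylase 1 (LSD1), which removes methyl groups from histone H3, and against H3 mono- or dimethylated at lysine 9 (H3K9me1 and H3K9me2). Each antibody gave 1 library and 1 peak list per condition, 8 lists in all, and the 2 inputs entered only as the control in the authors' peak calling. With 1 library per group there was no replicate spread, so fed and starved values stand side by side without a test. The text of the study gives another age than the labels. The fed and the starved H3K9me1 libraries carried different library codes, as did those of H3K9me2, so for both marks condition and code cannot be told apart. File names listed with the study also give the fed and starved libraries of GR and of LSD1 separate codes, so the same holds for them. Lists held from 6624 peaks (H3K9me2 starved) to 171402 peaks (H3K9me2 fed), their depth was unknown, and the LSD1 starved list, with 66332 peaks against 16616 in LSD1 fed, held far more than the text of the study states. Every LSD1 starved value below rests on that list. Of 9 muscle genes, 5, 6, 6 and 5 had a promoter peak in the GR lists (fed, starved) and the LSD1 lists (fed, starved), against 17.9%, 32.2%, 28.9% and 20.2% of all genes. Acta1, Ckm, Des and Ttn had one in each of these 4 lists, and the fast myosin heavy chain genes Myh1, Myh2 and Myh4 had none in any of the 8 lists. Polycomb genes had 47.4%, 63.2%, 63.2% and 42.1% in the same 4 lists, so the muscle gene counts do not identify the tissue.

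The promoter window began 1 kb before each transcription start site (TSS) and ended 100 bp past it, and a gene had a promoter peak when a peak overlapped that window by at least 1 bp. Fold is the authors' enrichment of a peak over input, and q is its p-value adjusted for multiple testing by the peak caller. Intervals are exact 95% intervals, Clopper-Pearson for shares and Poisson for peak numbers. They cover counting error only, and neighboring genes and peaks are not independent. Distances are from the peak midpoint to the nearest Hox TSS, with negative values upstream.

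The sequences of the sites on which the results turn, 5′ to 3′ on the strand of the cluster's genes (GRCm38, RefSeq genome sequence), follow. The Hoxc10 promoter was the one Hox promoter with a peak in both GR lists. Its GR fed peak spanned chr15:102966343-102966484 (plus strand), and capitals mark the bases that also lay in the GR starved peak.
Hoxc10 promoter: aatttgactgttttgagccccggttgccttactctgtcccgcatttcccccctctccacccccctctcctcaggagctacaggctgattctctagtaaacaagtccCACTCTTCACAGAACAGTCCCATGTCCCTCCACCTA
The stretch upstream of Hoxa7 was the only place in the clusters where peaks of 3 lists had bases in common. The GR fed peak is shown, chr6:52221784-52221916 (minus strand), with capitals for the 125 bases common to GR fed, GR starved and LSD1 fed.
Hoxa7 upstream: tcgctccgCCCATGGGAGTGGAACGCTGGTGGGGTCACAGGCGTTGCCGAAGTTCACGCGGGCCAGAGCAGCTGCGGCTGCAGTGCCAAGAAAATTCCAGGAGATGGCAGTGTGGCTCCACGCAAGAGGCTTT
The Hoxa3 promoter held the GR starved peak of highest fold, chr6:52213769-52213897 (minus strand).
Hoxa3 promoter: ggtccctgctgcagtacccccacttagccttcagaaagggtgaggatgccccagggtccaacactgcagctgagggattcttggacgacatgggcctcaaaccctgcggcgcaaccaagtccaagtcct
Upstream of Hoxc4, the GR starved peak of lowest q overlapped an H3K9me2 fed peak in chr15:103027399-103027638 (plus strand), shown here.
Hoxc4 upstream: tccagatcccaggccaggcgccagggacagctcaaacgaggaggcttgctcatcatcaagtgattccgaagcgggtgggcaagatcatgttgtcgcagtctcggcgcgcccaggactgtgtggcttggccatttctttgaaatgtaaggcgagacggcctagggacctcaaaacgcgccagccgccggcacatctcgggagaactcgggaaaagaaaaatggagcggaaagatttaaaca
The exon of Hoxa10 held the H3K9me1 starved peak of highest fold, chr6:52234685-52234748 (minus strand), with capitals for the 47 bases that also lay in an H3K9me2 fed peak.
Hoxa10 exon: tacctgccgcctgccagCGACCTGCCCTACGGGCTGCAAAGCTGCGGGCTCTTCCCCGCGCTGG

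Few Hox promoters carried a GR or LSD1 peak. In GR fed, 1 of 39 Hox genes had one (2.56%, interval 0.0649% to 13.5%), against 17.9% of all genes and 35.5% of genes with a CpG-rich promoter (GC of at least 55% and observed over expected CpG of at least 0.6). In GR starved, 5 of 39 had one (12.8%, 4.30% to 27.4%), against 32.2% and 58.6%. In LSD1 fed and in LSD1 starved it was 1 of 39 each (2.56%, 0.0649% to 13.5%), against 28.9% and 57.1% in LSD1 fed and 20.2% and 38.8% in LSD1 starved. In these 4 lists the upper end of the Hox interval lay below the share of all genes. That relation rested on the deposited lists and on the window in both starved cases. With the starved list cut to the length of the fed one, it was 1 of 39 in GR starved (upper end 13.48%) against 13.1% of all genes. In LSD1 starved it was then 0 of 39 (upper end 9.03%) against 5.58%. At a q of at most 0.01 LSD1 starved had 0 of 39 against 3.83%. The relation held in none of the 4 lists, fed or starved, at a q of at most 1e-05. There 0 of 39 (upper end 9.03%) stood against 1.71% in GR fed, 1.56% in GR starved, 0.167% in LSD1 fed and 0.0714% in LSD1 starved. With a window to 1 kb downstream of the TSS, GR starved had 10 of 39 (upper end 42.1%) against 35.4%. LSD1 starved had 7 of 39 (upper end 33.5%) against 25.0% in that window.

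Hoxc10, a posterior gene known for its role in hindlimb and lumbar patterning, had a promoter peak of fold 2.89 (q = 0.028) in GR fed and of fold 2.79 (q = 0.0137) in GR starved. The fed peak was centered at -0.383 kb and the starved peak, of 456 bp, at -0.12 kb, and they shared the 36 bases in capitals above. A second GR fed peak of 857 bp and fold 2.92 lay in the Hoxc10 exon at chr15:102966954-102967810. No GR starved peak overlapped it, but the starved promoter peak, chr15:102966449-102966904, ended just before it. Both GR fed peaks of the HoxC cluster were thus at Hoxc10.

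The other Hox genes with a GR promoter peak had it in the starved list. Hoxa3, an anterior gene required for the thymus and parathyroid, had 2 such peaks, of fold 3.09 (q = 0.00224) at -0.766 kb and of fold 2.75 (q = 0.0104) at -0.103 kb. The start of Hoxa3 in the annotation lies between Hoxa7 and Hoxa6, so its promoter is not next to Hoxa2 or Hoxa4. Hoxa4 had a peak of 486 bp and fold 2.45 (q = 0.0729), and Hoxa6 one of 401 bp and fold 2.54 (q = 0.0761), both near the weakest q the lists admit (0.0998). Hoxd12, a posterior gene of digit patterning, had a peak of fold 2.65 (q = 0.0454) that spanned the TSS, with its midpoint in the exon at 0.126 kb. Of the 5 genes, only Hoxa3 kept a peak at a q of at most 0.01.

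For LSD1 the fed and the starved promoter were different genes. Hoxc11, a posterior gene, had a fed peak of fold 4.66 (q = 0.00116) across its TSS, higher than 86.9% of LSD1 fed peaks. Hoxd3, an anterior gene known from the axial skeleton, had a starved peak of 100 bp and fold 3.35 (q = 0.0748) at -0.789 kb. No Hox promoter had peaks of both GR and LSD1, with 5 and 2 genes to draw on (12.8% and 5.13%). Over all genes, 35.5% had GR, 35.8% LSD1 and 25.8% both. So few Hox genes cannot show whether GR and LSD1 avoid each other there. With a window to 1 kb downstream of the TSS, Hoxa3, Hoxa9 and Hoxc11 had peaks of both.

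The H3K9 marks gave a different count. In H3K9me2 fed, 12 of 39 Hox genes had a promoter peak (30.8%, 17.0% to 47.6%), against 26.4% of all genes and 42.0% of those with a CpG-rich promoter, both inside the Hox interval. In H3K9me2 starved none did (0 of 39, interval up to 9.03%), against 0.219% of all genes and 0.102% of CpG-rich ones, so few genes of any kind had one in this list. In H3K9me1 fed there were 2 of 39 (5.13%, against 2.29% and 3.73%), and in H3K9me1 starved 1 of 39 (2.56%, against 3.52% and 5.65%).

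HoxB held 6 of the 12 H3K9me2 fed genes, namely Hoxb2, Hoxb3, Hoxb5, Hoxb7, Hoxb9 and Hoxb13. The highest fold among them was that of Hoxb7, 4.98 (q = 4.07e-05, 233 bp at -0.258 kb), above 99.5% of the list, followed by Hoxb5 with 4.32 (q = 0.00112). Hoxb2 had a fold of 3.70, Hoxb3 of 3.60 and Hoxb13 of 3.27, and Hoxb9, a posterior gene, had 2 peaks of fold 3.35 and 3.44, the latter 832 bp long. HoxD added Hoxd9 (fold 4.13, q = 0.00154), Hoxd8 (3.88, q = 0.00712) and Hoxd11 (3.25, q = 0.0517). Among the genes added by HoxA were Hoxa10 (3.44) and Hoxa13 (3.32), a gene of the distal limb, whose peak lay just outside the transcribed span of the cluster. No HoxC promoter had an H3K9me2 peak. At a q of at most 0.01 there were 5 genes, Hoxb2, Hoxb5, Hoxb7, Hoxd8 and Hoxd9 (12.8%, 4.30% to 27.4%), against 6.49% of all genes.

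For H3K9me1 the fed genes were Hoxd13 (fold 3.88, q = 0.0191, 264 bp over the TSS), a digit patterning gene, and Hoxc6 (fold 3.41, q = 0.0471, 49 bp). The starved gene was Hoxa10, a posterior gene known from the uterus, with a fold of 4.94 (q = 0.000249, 49 bp). Hoxa10 has 2 start sites in the annotation. The H3K9me1 starved peak, chr6:52235276-52235324, and the H3K9me2 fed peak, chr6:52241335-52241384, were at different ones.

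By gene, 19 Hox genes had a promoter peak in 1 list, 2 in more than 1 (Hoxc10 and Hoxa10) and 18 in none. The 7 genes with GR or LSD1 (17.95% of the 39) and the 14 with an H3K9 mark (35.9%) did not overlap. Over all genes 45.5% had a GR or LSD1 peak, 30.1% an H3K9 peak and 21.2% both. The absence of overlap depended on the window, since Hoxa3, Hoxa10, Hoxb5 and Hoxd9 had both kinds when it ran to 1 kb downstream. With 7 and 14 genes to draw on, it cannot show whether the 2 kinds avoid each other. For the Hox genes, an overlap of 0 of 39 has an interval of up to 9.03%. Those without a promoter peak were Hoxa2, Hoxa5, Hoxa7, Hoxa9 and Hoxa11 in HoxA, Hoxb1, Hoxb4, Hoxb6 and Hoxb8 in HoxB, Hoxc4, Hoxc5, Hoxc8, Hoxc9, Hoxc12 and Hoxc13 in HoxC, and Hoxd1, Hoxd4 and Hoxd10 in HoxD. By position, H3K9me2 fed peaks were at 3 of 12 anterior genes (paralogs 1 to 4), 3 of 11 central genes (5 to 8) and 6 of 16 posterior genes (9 to 13). GR starved peaks were at 2, 1 and 2 genes of these classes. Of all genes, 26.4% had an H3K9me2 fed and 32.2% a GR starved promoter peak, and such small counts show no difference between the classes.

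**Figure D1:**
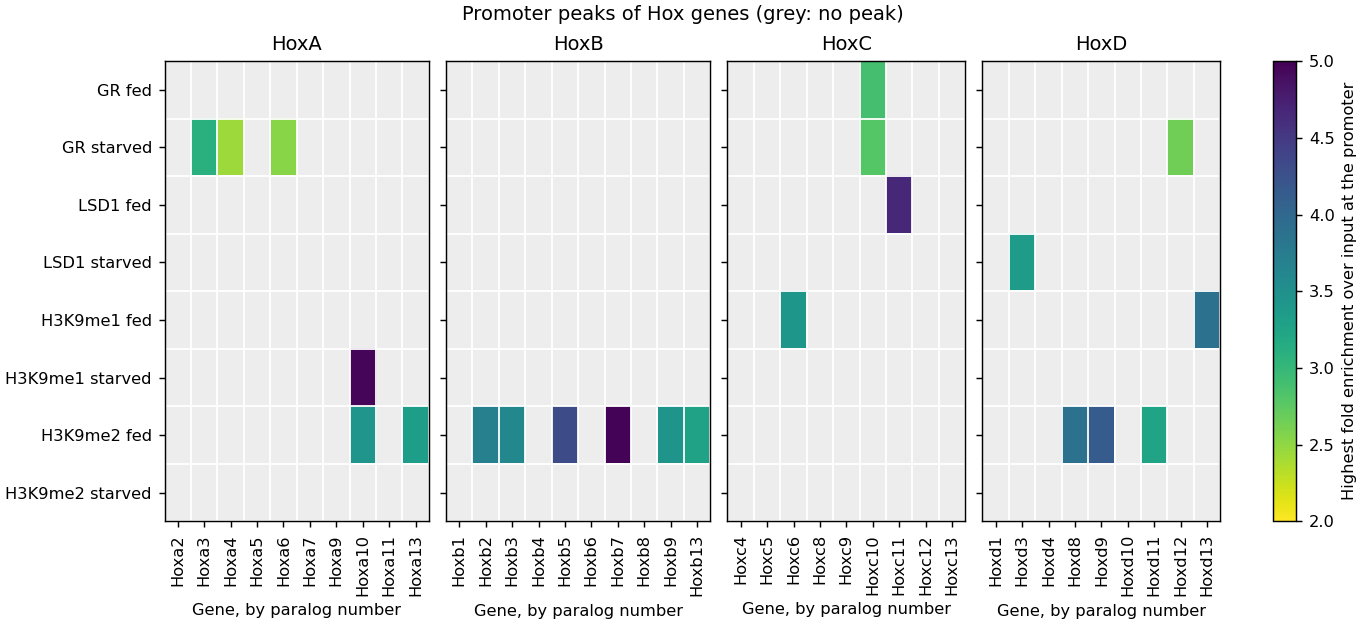
Promoter peaks of Hox genes, with a column for each gene shown, by cluster and paralog number, and a row for each of the 8 peak lists. Color gives the highest fold enrichment over input among the promoter's peaks, and grey means no peak. GR starved has colored cells at 5 genes, H3K9me2 fed at 6 genes of HoxB and 3 of HoxD among others, and H3K9me2 starved at none.

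Extending the window to 1 kb downstream of the TSS, an alternative set beside the main window, added Hox genes mainly in GR starved and LSD1 starved. GR starved went from 5 to 10 of 39 genes by Hoxa5, Hoxa7, Hoxa9, Hoxc5 and Hoxc11, against 35.4% of all genes in the same window. LSD1 starved went from 1 to 7 by Hoxa3, Hoxa10, Hoxb5, Hoxc4, Hoxd1 and Hoxd9 (17.95%, 7.54% to 33.5%), against 25.0%. GR fed stayed at 1 (19.5% of all genes) and LSD1 fed reached 2 by Hoxa9 (31.6%). H3K9me2 fed reached 16 by Hoxa3, Hoxb6, Hoxc6 and Hoxc9 (35.3%), H3K9me1 starved 2 by Hoxa11 (6.18%), H3K9me1 fed stayed at 2 (3.43%) and H3K9me2 starved at 0 (0.338%).

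Across the whole clusters, from the first to the last transcribed base of their members, the picture differed from that at the promoters. The spans were chr6:52155367-52260880 for HoxA (105.5 kb), chr11:96194316-96368253 for HoxB (173.9 kb), chr15:102921131-103036852 for HoxC (115.7 kb) and chr2:74668225-74765142 for HoxD (96.92 kb). GR fed had 4 peaks in these spans, GR starved 27, LSD1 fed 7, LSD1 starved 13, H3K9me1 fed 3, H3K9me1 starved 8, H3K9me2 fed 72 and H3K9me2 starved 0. Each peak counted here overlapped a span by at least 1 bp.

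In the list as deposited, GR starved peaks were denser in the clusters than beside them. The clusters held 5.49 GR starved peaks per 100 kb (3.62 to 7.98), the 500 kb on each side of them 2.30 (1.85 to 2.82) and the genome 1.38. In GR fed the values were 0.813 (0.222 to 2.08), 0.750 and 0.517. The starved list was the longer one, and when it was cut to the 14108 peaks of highest fold, the length of the fed list, 6 peaks remained in the clusters, 1.22 per 100 kb against 0.517 over the genome. No density beside the clusters was taken for the cut list. Each cluster also held more genes per 100 kb than its flanks, and whether that accounts for the excess was not tested. LSD1 had 1.42 peaks per 100 kb in the clusters, 1.33 beside them and 0.608 over the genome in the fed list, and 2.64, 3.18 and 2.42 in the starved list.

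The 4 clusters were unequal. HoxA and HoxC held 12 GR starved peaks each, HoxD 2 and HoxB 1. HoxA, at 11.4 per 100 kb (5.88 to 19.9), had 18.95 times the density of its flanks, which had 0.6 (0.220 to 1.31), although the flanks also had fewer genes (0.4 against 10.4 per 100 kb). HoxC had 10.4 per 100 kb (5.36 to 18.1) against 4.2 (3.03 to 5.68) in its flanks, with 7.78 against 2.1 genes per 100 kb. HoxB went the other way, with 0.575 (0.0146 to 3.20) in the cluster and 3.9 (2.77 to 5.33) in flanks with fewer genes, 1.7 against 5.75 per 100 kb. HoxD had 2.06 (0.250 to 7.45) against 0.5 (0.162 to 1.17), intervals that overlap, with 9.29 against 0.3 genes per 100 kb.

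HoxA and HoxC together, a grouping chosen after the values were seen, made up 45.0% of the cluster sequence and held 4 of 4 GR fed, 24 of 27 GR starved, 6 of 7 LSD1 fed and 8 of 13 LSD1 starved peaks. Of the H3K9me2 fed peaks, 24 of 72 (33.3%) lay there and 48 in HoxB and HoxD, but of the 6 left when that list was cut to the length of the starved one, 3 lay there and 3 in HoxB. The 5 GR starved peaks at a q of at most 0.01 were 2 in HoxA, 2 in HoxC and 1 in HoxD.

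**Figure D2:**
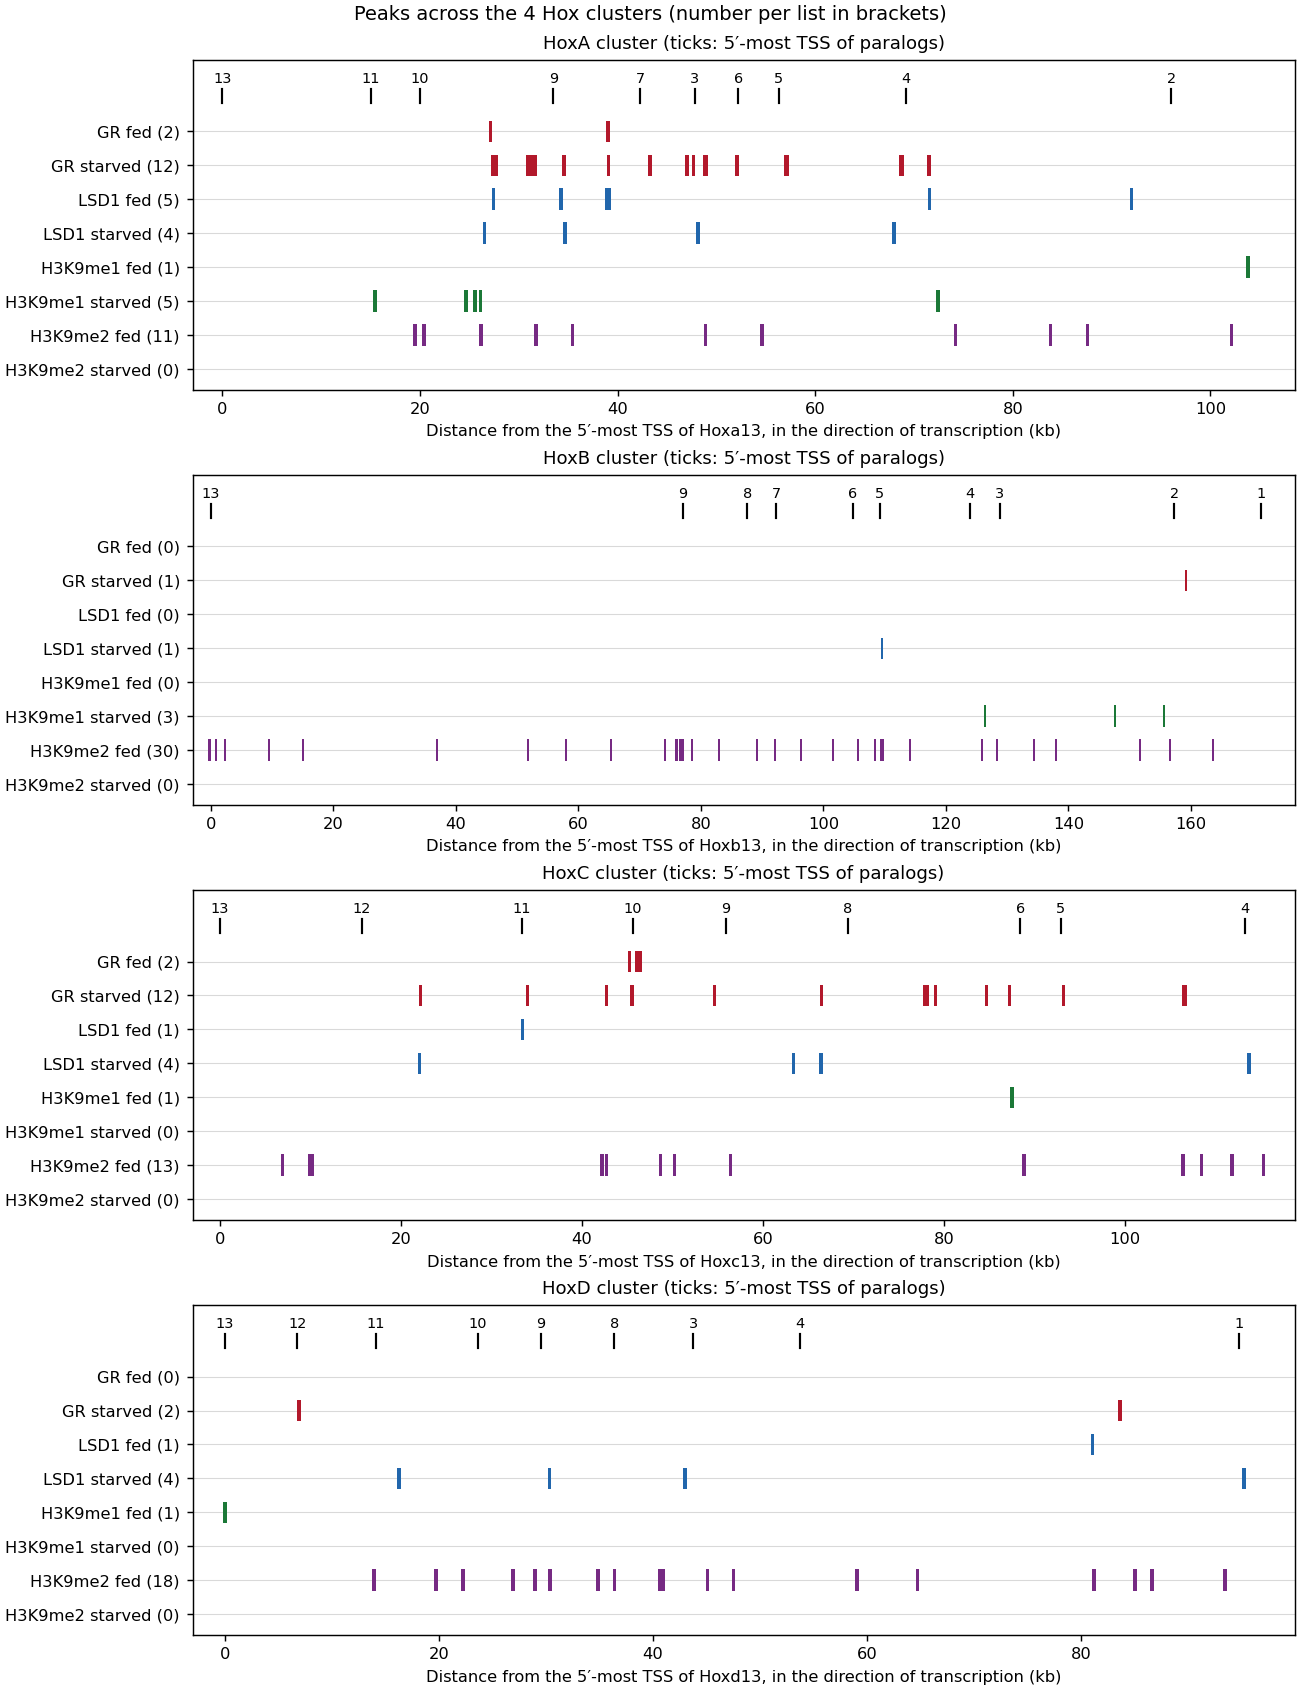
Position of every peak in the HoxA, HoxB, HoxC and HoxD clusters, with the distance in kb from the most upstream TSS of the paralog 13 gene on the horizontal axis and a row for each peak list. Black ticks mark the TSS of the paralogs shown, and peaks under 0.35 kb are drawn 0.35 kb wide. GR starved peaks fill the middle of HoxA and spread over HoxC, while HoxB and HoxD hold mostly H3K9me2 fed peaks, 30 and 18.

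The 12 GR starved peaks of HoxA lay within 44.5 kb, chr6:52189224-52233731, from the intron of Hoxa10 to a peak centered 2.34 kb downstream of the Hoxa4 start, and none lay over Hoxa2, Hoxa11 or Hoxa13. Those of HoxC were spread over 84.9 kb, from between Hoxc12 and Hoxc11 to upstream of Hoxc4. By their midpoints, 5 of all 27 were in promoters, 7 in exons, 3 in introns and 12 between genes, and 22 thus lay outside promoters. Over the whole GR starved list 13.9% were in promoters, 7.42% in exons, 43.5% in introns and 35.2% between genes.

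Upstream of Hoxa7, a central gene, GR fed (fold 2.98, q = 0.0229), GR starved (2.64, q = 0.039) and LSD1 fed (4.54, q = 0.00262) peaks coincided at -3.28, -3.23 and -3.27 kb. The LSD1 fed peak was 686 bp long, the longest of that list in the clusters, and LSD1 starved had none there. In the intron of Hoxa10, GR fed (fold 3.18, q = 0.00909, at 1.19 kb) overlapped a GR starved peak of 721 bp (2.68), which also overlapped an LSD1 fed peak (3.93). Near Hoxa4, at 2.34 kb, a GR starved peak (2.70) overlapped one of LSD1 fed (4.38, q = 0.00534). In LSD1 starved, by contrast, the overlaps with GR starved were at the Hoxa9 exon, between Hoxc12 and Hoxc11 and at -3.003 kb from Hoxc8.

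The lowest q of any GR peak in the clusters was 4.94e-05, for the GR starved peak of 643 bp and fold 3.07 at -6.71 kb from Hoxc4. The H3K9me2 fed peak within it had a fold of 2.85 (q = 0.052), among the lowest 1.11% of its list. In the exon of Hoxb2, the gene of the hindbrain's anterior segments, lay the one GR starved peak of HoxB, with a fold of 2.61 (q = 0.0537). HoxD had, beside Hoxd12, a GR starved peak of 110 bp and fold 2.90 (q = 0.00894) at -11.1 kb from Hoxd1.

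LSD1 starved peaks of highest fold were in exons. They were at Hoxd1 (fold 4.11, q = 0.00689), Hoxa10 (4.10, q = 0.0123) and Hoxb5 (3.81, q = 0.0427), each 49 bp, the shortest length in that list. The highest in HoxC was at -3.003 kb from Hoxc8 (3.81, q = 0.0256). The only LSD1 fed peak of HoxD lay at -13.7 kb from Hoxd1 (fold 3.79, 55 bp).

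**Figure D3:**
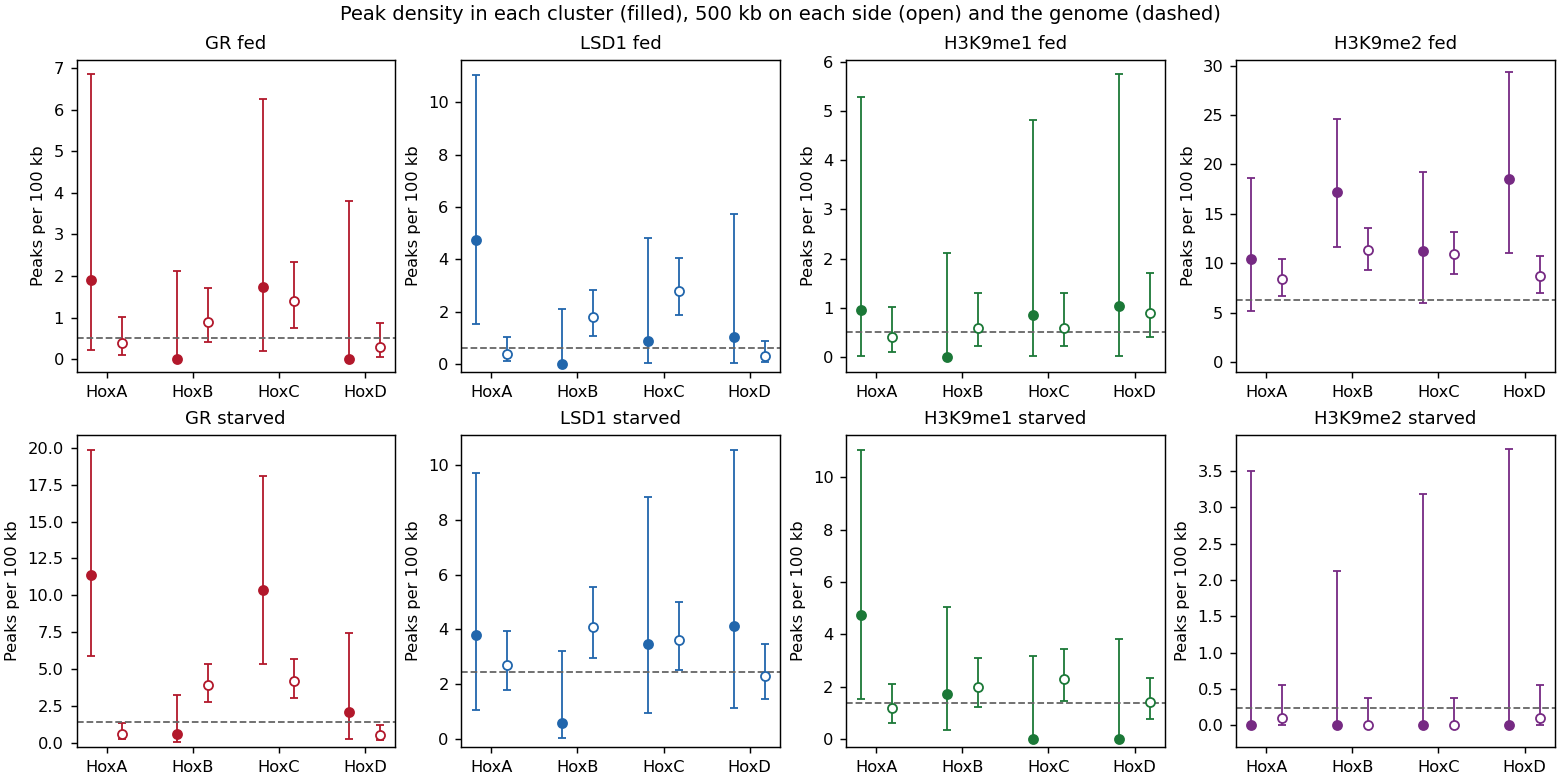
Peaks per 100 kb in each Hox cluster (filled circles), in the 500 kb on each side of it (open circles) and over the genome (dashed line), in a panel for each of the 8 lists, with vertical scales that differ between panels. Bars are exact Poisson 95% intervals. In GR starved, HoxA at 11.4 stands above its flanks at 0.6, and HoxB at 0.575 lies below its flanks at 3.9.

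H3K9me2 fed peaks occurred in all 4 clusters and covered from 1.17% (HoxA) to 2.45% (HoxD) of their bases. The densities were 10.4 per 100 kb in HoxA (5.20 to 18.7), 17.2 in HoxB (11.6 to 24.6), 11.2 in HoxC (5.98 to 19.2) and 18.6 in HoxD (11.01 to 29.4), with 8.4, 11.3, 10.9 and 8.7 in the flanks and 6.28 over the genome. Over the 4 clusters the density was 14.6 (11.5 to 18.4) against 9.83 (8.88 to 10.9) in the flanks. The 74.72 kb between Hoxb13 and Hoxb9, which hold no Hox gene, were overlapped by 10 H3K9me2 fed peaks (13.4 per 100 kb) and none of the other 7 lists. Among the 10 were both Hoxb9 promoter peaks and a peak centered in the Hoxb13 exon. The density is thus not that of sequence away from the 2 genes, and no excess over the flanks can be read from it. In the H3K9me2 starved list no peak fell in any cluster and 2 fell in the flanks.

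The H3K9me2 fed peak of highest fold, 5.16 (q = 1.56e-05), lay in the Hoxb5 exon and exceeded 99.7% of its list. In HoxA the highest, of fold 4.51, lay in an exon of Hoxa6, at -1.69 kb from Hoxa5. In HoxC the highest, of fold 4.38, lay at -5.78 kb from Hoxc12, and in HoxD, of fold 4.23, at -2.82 kb from Hoxd3. As many as 26 of the 72 were 50 bp long, the shortest that H3K9me2 fed peaks came.

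H3K9me1 peaks were few. The starved list had 5 in HoxA and 3 in HoxB. At Hoxa10 the H3K9me1 starved peak in the exon had a fold of 5.03 (q = 7.04e-05), and the H3K9me2 fed peak over the same bases had one of 4.38 (q = 0.000736). It was the only place in the clusters where peaks of both marks overlapped. The highest fold in HoxB was 4.46, at -1.74 kb from Hoxb2. The fed list had 1 peak each in HoxA (fold 3.84), HoxC and HoxD, the latter 2 at the promoters named above.

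Folds in the clusters lay near or below those of the whole lists in GR, and near them in the others. Median folds in the clusters and in the whole list were 2.95 and 3.29 in GR fed, 2.68 and 2.70 in GR starved, 4.14 and 4.03 in LSD1 fed, 3.36 and 3.44 in LSD1 starved, 3.84 and 3.91 in H3K9me1 fed, 4.20 and 3.97 in H3K9me1 starved and 3.41 and 3.33 in H3K9me2 fed. None of the 51 GR and LSD1 peaks in the clusters reached a fold of 5, which 11.1% of the GR fed list, 1.82% of GR starved, 6.70% of LSD1 fed and 0.464% of LSD1 starved did. A q of at most 0.01 was reached by 1 of 4 GR fed peaks (70.5% of the list), 5 of 27 GR starved (34.7%), 3 of 7 LSD1 fed (45.5%) and 1 of 13 LSD1 starved (10.2%). It was reached by 19 of 72 H3K9me2 fed peaks (20.9%), 4 of 8 H3K9me1 starved (44.9%) and 0 of 3 H3K9me1 fed (41.0%).

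**Figure D4:**
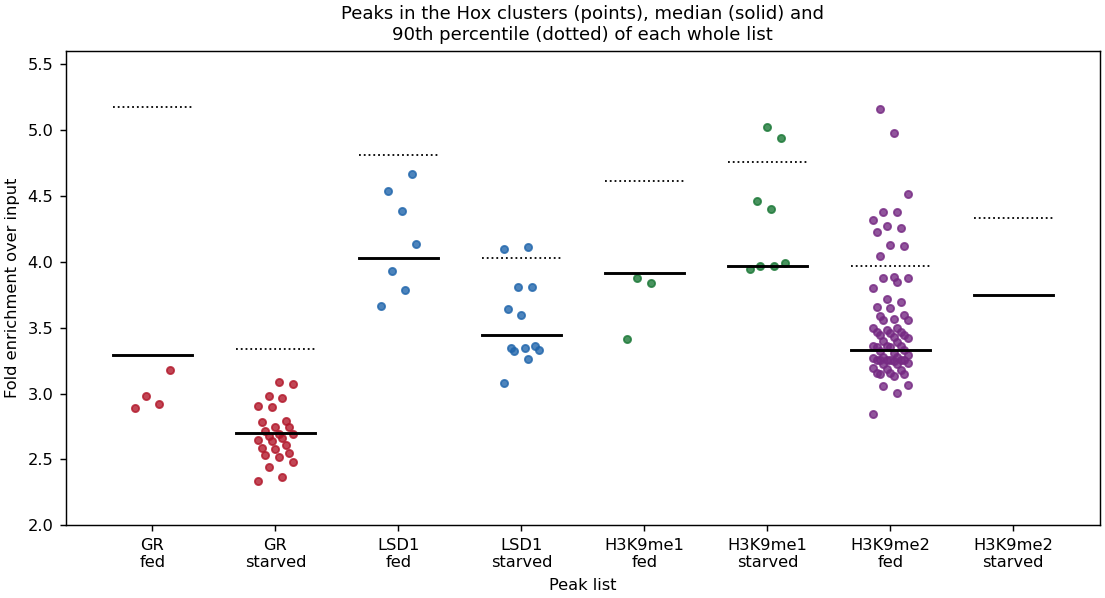
Fold enrichment over input of each peak in the Hox clusters (points) by peak list, with the median (solid line) and the 90th percentile (dotted line) of the whole list. The 4 GR fed points lie below the list median of 3.29, the 27 GR starved points lie between 2.33 and 3.09, and the highest point, 5.16, is in H3K9me2 fed.

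Sharing between lists was near that of the whole lists for some pairs and lower for others, on few peaks. Of the 4 GR fed peaks 3 were overlapped by a GR starved peak (65.8% over the whole list), whereas of the 27 GR starved peaks 3 were overlapped by a GR fed peak (24.5%). None of the 7 LSD1 fed peaks was overlapped by an LSD1 starved one (23.1% over the list). GR and LSD1 shared 1 of 4 GR fed peaks in the fed lists (48.3%) and 3 of 27 GR starved peaks in the starved lists (14.7%). Of the 27 GR starved peaks, 4 were overlapped by H3K9me2 fed (14.8%, against 13.2% over the list).

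Other gene lists gave the scale. Among 47 other homeobox regulators of the embryo, such as the Dlx, Lhx and Nkx genes, 1 had a promoter peak in GR fed (2.13%), 7 in GR starved (14.9%), 5 in LSD1 fed (10.6%), 9 in LSD1 starved (19.1%) and 7 in H3K9me2 fed (14.9%). Hox shares lay within the intervals of this list in GR fed and GR starved (0.0539% to 11.3% and 6.20% to 28.3%) and below them in both LSD1 lists (3.55% to 23.1% and 9.15% to 33.3%), which the Hox interval overlapped. In H3K9me2 fed the Hox share of 30.8% lay above that interval (6.20% to 28.3%), and the intervals overlapped. Six4, a regulator of muscle development, was the one gene of this list with peaks in all 4 GR and LSD1 lists.

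For the genes of Hox partners and regulators, the shares of all genes to set beside the counts are 17.9%, 32.2%, 28.9% and 20.2% in the order used here, and 26.4% in H3K9me2 fed. Of the 9 cofactor genes, 1, 5, 3 and 3 had a promoter peak in the fed and starved lists of GR and then of LSD1, with Pknox1 in all 4, and in H3K9me2 fed 4. The share of cofactor genes was 11.1% in GR fed (0.281% to 48.2%) and 33.3% in LSD1 fed, and so lay below that of all genes in the former. Of 19 Polycomb genes it was 9, 12, 12 and 8, with Ezh2, Jarid2, Ring1 and Rnf2 in all 4, and in H3K9me2 fed 12. Of 11 Trithorax genes it was 5, 5, 5 and 4, with Kmt2b in all 4, and in H3K9me2 fed 6. Olfactory receptor genes, which are silent in muscle, had 1, 3, 0 and 16 of 1103.

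**Figure D5:**
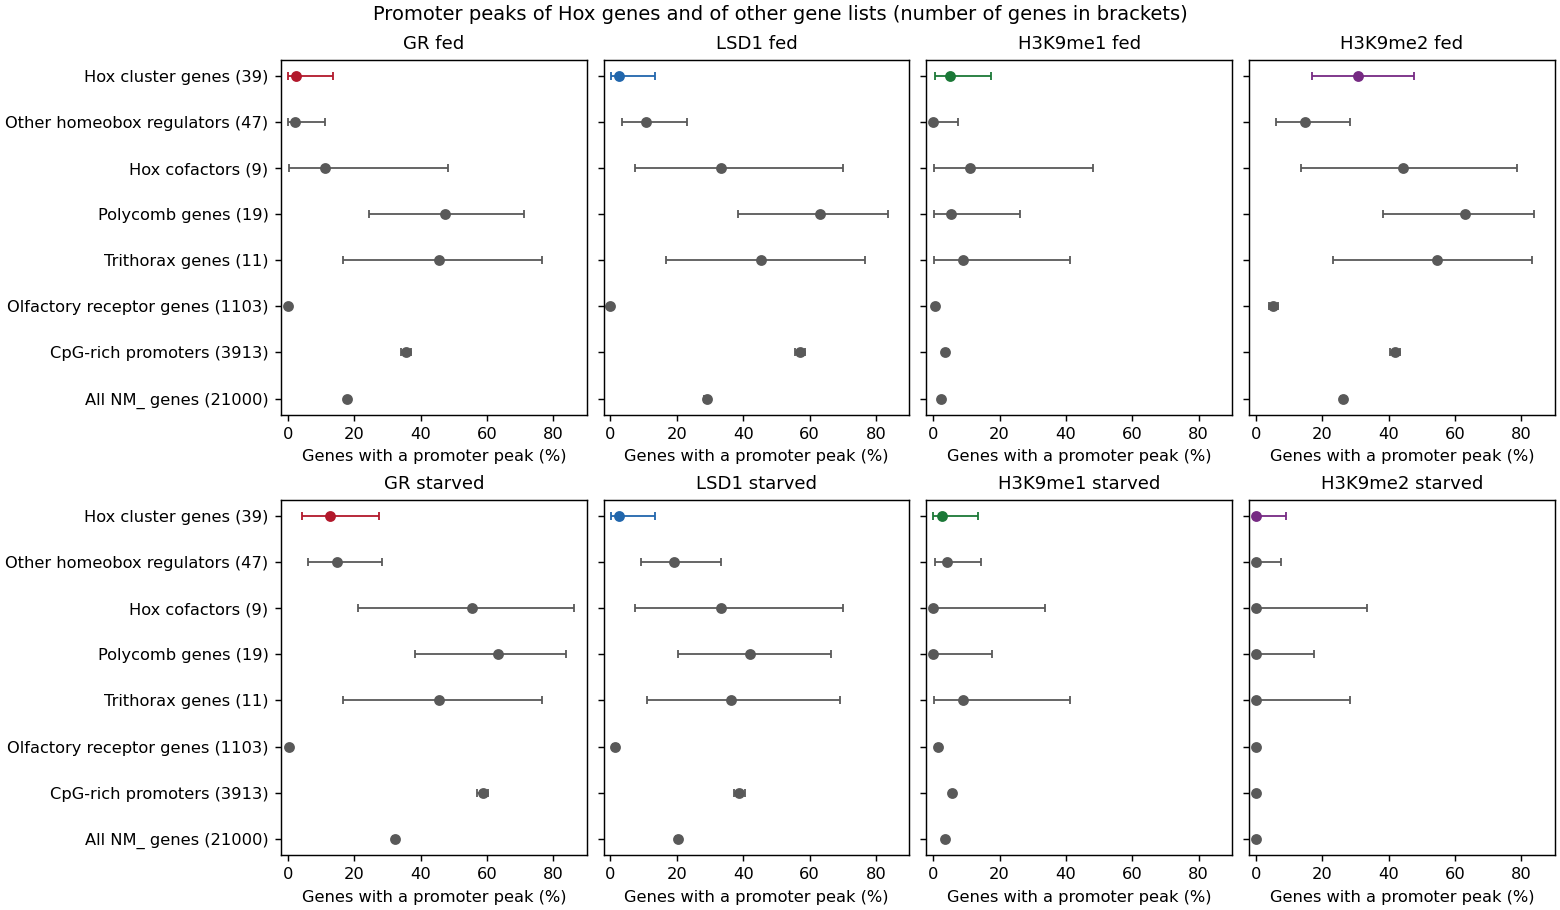
Share of genes with a promoter peak, in percent, for the 39 Hox genes (colored) and 7 other gene lists (grey), in a panel for each of the 8 peak lists. Bars are exact Clopper-Pearson 95% intervals. In GR starved the Hox share of 12.8% lies near that of other homeobox regulators at 14.9% and below that of Polycomb genes at 63.2%, and in H3K9me2 fed it is 30.8% against 26.4% of all genes.

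Inside the spans lie 25 noncoding genes, of which 7 had a promoter peak in some list. In GR starved these were 4, Mir196b, Mir615, Hoxb3os and Gm14424, against 32.2% of all protein-coding genes. No share over other noncoding genes was taken. The peaks at Hoxb3os and Gm14424 were those described above in the Hoxb2 exon and at -11.1 kb from Hoxd1. LSD1 starved added Haglr (20.2% of protein-coding genes), H3K9me1 starved Hoxa11os (3.52%) and H3K9me2 fed 5730596B20Rik (26.4%). Hotair and Hotairm1, long noncoding RNAs of the HoxC and HoxA clusters, had none. A GR starved peak of 1024 bp and fold 2.67 (q = 0.0406) upstream of Hoxa9, chr6:52229072-52230095, reached into the hairpin of Mir196b. Of the nearest protein-coding genes outside the spans, Calcoco1, 199.0 kb from HoxC, had promoter peaks in all 4 GR and LSD1 lists, and Evx1, Evx2 and Skap1 had none in any list.

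Hox promoters were somewhat richer in CpG than others, with the highest value taken where a gene has several start sites. Their median GC was 53.2% against 50.5% of all genes, the observed over expected CpG 0.506 against 0.472, and 10 of 39 (25.6%) were CpG-rich against 18.6%. Among those 10, Hoxa4 had a GR peak, Hoxa13, Hoxd8 and Hoxd11 an H3K9me2 fed peak, and Hoxd13 an H3K9me1 fed peak. Over the whole spans, GC was 50.01% in HoxA, 48.9% in HoxB, 49.1% in HoxC and 49.4% in HoxD against 41.7% in the genome. Repeats made up 13.4%, 24.6%, 15.9% and 14.4% of them against 36.4%, and the observed over expected CpG was 0.477, 0.349, 0.357 and 0.461 against 0.190.

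Motif letters were searched on both strands. The glucocorticoid response element was taken as the half-sites AGAACA and TGTTCT 3 bases apart, allowing 1 mismatch. For nuclear respiratory factor 1 (NRF1) the palindromic consensus had to match in full. Neither was present in any of the 39 Hox promoters, against 0.724% and 1.75% of all promoters, nor in any cluster peak. Over the whole GR fed and GR starved lists 2.17% and 0.712% of peaks held a match, so few GR peaks anywhere had a response element by this strict definition. The paper's own motif search placed response elements at GR-bound enhancers. It also describes GR sites near Ddit4 that depart from the consensus by more than the 1 mismatch allowed here. The 4 spans held 1 response element match in all, in HoxD, and no NRF1 match. A single half-site was present in 2 of 4 GR fed and 8 of 27 GR starved cluster peaks (29.6%), against 30.3% and 25.6% of the whole lists. The Hoxc10 sequence above held AGAACA once, inside the bases shared by both GR peaks, and the other printed sequences held no half-site.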

How the data were processed

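ChIP-seq peak lists of mouse skeletal muscle were analysed. Reads were mapped by the authors to mm10 (GRCm38), and the authors ran MACS2 in broad mode on each library with input as control. The methods name a blacklist of the human genome. Columns deposited for each peak were its enrichment over input (a ratio or fold) and the −log10 of a p-value and of a q-value, and a deposited score, not used here, stood beside them. The least stringent q lay between 0.0925 and 0.0998 over the 8 lists, whereas the methods state that peaks above a false discovery rate of 0.01 were removed. At a q of at most 0.01, from 10.2% (LSD1 starved) to 70.5% (GR fed) of the peaks remain. Depth was unknown, so no precision by depth can be given.

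Peaks on chromosomes 1 to 19, X and Y were intersected with the 37867 RefSeq NM_ transcripts on GRCm38 by own code (Python 3.11.15, pandas 2.3.3, numpy 2.4.6, scipy 1.17.1, matplotlib 3.10.9), which was tested on simulated data. A region was overlapped by at least 1 bp. Exon, intron and promoter locations were by midpoint. No test was made, since each group was 1 library. Groups came from the labels.

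The members, the comparison lists and the alternatives were chosen with earlier results of these data known. The genes named were the Hox genes with a promoter peak, the peak of highest fold in each cluster and list, and from each comparison list up to 4 genes with a promoter peak in all 4 GR and LSD1 lists. 1 gene and the sequences of 2 sites are not reported here. Sites shared by several lists, the peak of lowest q, and noncoding and flanking genes were named after their values were seen. The alternatives were q thresholds of 0.01 and 1e-05, peak midpoints in place of any overlap, a window to 1 kb downstream, peaks within 1 kb merged, and fed and starved lists cut to equal length by fold.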

Additional observations from a re-analysis of the deposited data

How the results depend on the processing

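No paired analysis was possible because each group was 1 library and the labels carry no replicate numbers. Over 80 alternative values, 43 stayed within 1.5 times the number of Hox genes with a promoter peak or of cluster peaks given above, and 37 moved. Some of the 43 could not move. H3K9me2 starved had 0 to begin with, and cutting to equal length left the shorter list of each antibody as it was. Peak midpoints in place of overlap and merging of peaks within 1 kb moved none. At a q of at most 0.01, the Hox genes with a promoter peak numbered 0 in GR fed, 1 in GR starved, 0 in LSD1 starved, 0 in H3K9me1 fed and 5 in H3K9me2 fed, against 10.7%, 15.5%, 3.83%, 0.743% and 6.49% of all genes. The cluster peaks numbered 1, 5, 1, 0 and 19 in these lists, 3 in LSD1 fed and 4 in H3K9me1 starved. At a q of at most 1e-05, both numbers were 0 in all lists, where promoter peaks were at 1.71% of all genes in GR fed and at a lower share in each other list. With fed and starved lists of equal length, GR starved had 1 gene and 6 peaks, LSD1 starved 0 genes and 4 peaks, H3K9me1 starved 4 peaks, and H3K9me2 fed 2 genes and 6 peaks, with promoter peaks at 13.1%, 5.58%, 1.03% and 0.900% of all genes in these lists. With the window to 1 kb downstream, GR starved had 10 genes, LSD1 fed 2, LSD1 starved 7 and H3K9me1 starved 2. At a q of at most 0.01, 70.5% of the GR fed and 34.7% of the GR starved list remain, against 1 of 4 and 5 of 27 cluster peaks, and the cause was not tested. With 1 library per group and unknown depth, a missing peak cannot be told from one below the calling threshold.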
